A study of Mus musculus with 24 samples.

Results

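The RGS genes encode regulators of G protein signalling, and 8 of them (Rgs1, Rgs2, Rgs3, Rgs10, Rgs14, Rgs16, Rgs18 and Rgs19) are described here out of 22180 genes measured on Affymetrix arrays. A member was followed through the probe set annotated to its symbol. Rgs2 alone had 2 such probe sets, and the one with the higher mean over all arrays was used. The other read between 2.62 and 3.62 on every array.

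The arrays measured RNA of naive CD4 T cells from mice labelled TRIM28KO (KO) and from their wild-type littermates, here called WT. KO cells lack TRIM28, through which zinc finger proteins repress genes on chromatin. Cells of each genotype were taken unstimulated (0 h) or after 4, 24 or 72 h on bound anti-CD3 with soluble anti-CD28, which stand in for the T cell receptor and costimulatory signals. This gives 8 groups of 3 arrays, numbered 1 to 3 in the labels. The Cre line or other driver of the deletion, the age of the mice and the gate of the sort were not stated, and the labels do not say that arrays of a group are separate animals. The spread that a p-value rests on is thus that of these arrays, and it may be partly technical.

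Receptors for chemokines and many lipids act through heterotrimeric G proteins, whose alpha subunit is active while it holds GTP. RGS proteins speed the hydrolysis of that GTP and so shorten the signal. In lymphocytes they are known as brakes on migration towards chemokines, and several are switched on or off when a T cell is activated.

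Trim28 itself, the check of the labels, was lower in KO at every time, with group means of 5.16 to 5.61 in KO and 7.78 to 9.19 in WT and no overlap of the arrays. Whether its probes lie in the deleted part is not known here, so the check holds only as far as they do. T cell markers averaged 9.99 to 10.49 on every array, although single ones differed between the genotypes. Arrays numbered 3 carried Y-linked transcripts in all 8 groups (Eif2s3y at 8.0 to 8.69, against 2.14 to 2.75 on arrays 1 and 2) and low Xist, so each group held arrays of both sexes. Markers of other cells differed between the genotypes. Their counts stand beside the differences of Rgs1 at 4 h, Rgs2 and Rgs14 at 24 h and Rgs10 at 72 h. Their counts at all times and their levels follow the results on the members. In such bulk samples fewer cells of a type and less RNA per cell cannot be told apart.

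Levels are log2 intensities, and a difference of 1 is a doubling. They are not compared between genes, because each probe set has its own brightness. Changes are log2 differences with a standard error (SE) from limma, and a change counts as past the threshold when its adjusted p over all genes (Benjamini-Hochberg) is below 0.05. The KO change minus the WT change over the same interval is called the interaction.

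The 8 members spanned very different ranges over the 8 groups. The group means of Rgs16 spanned 5.82 log2 units, more than in 99.9% of genes. Rgs14 spanned 2.57, Rgs2 2.27, Rgs1 2.21, Rgs10 1.76, Rgs3 1.1 and Rgs19 0.77. Rgs18 spanned 0.10, a wider span than 0.374% of genes.

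**Figure D1:**
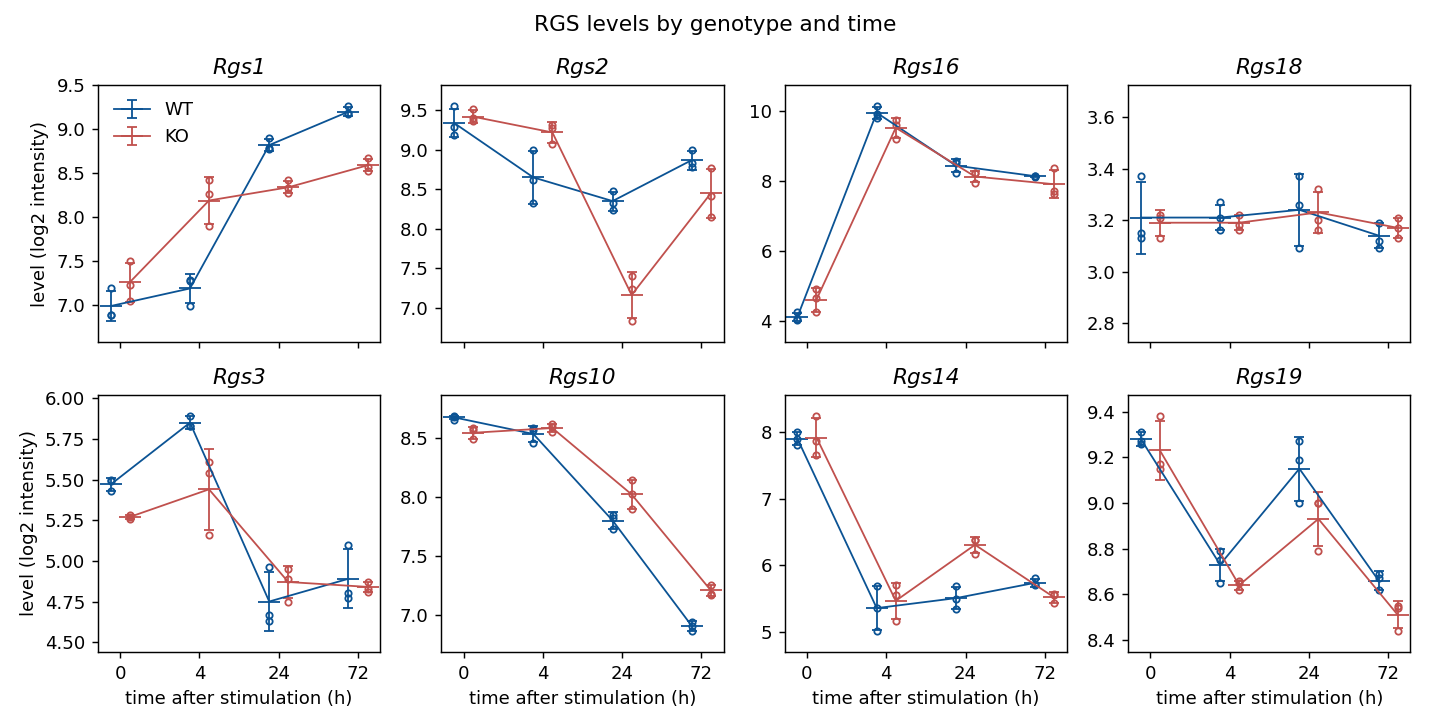
Levels of the 8 RGS genes (log2 intensity, vertical axes scaled per gene) against time after stimulation, with the 4 times evenly spaced. Circles are arrays, bars are the mean with its SD over 3 arrays, WT in blue and KO in red; Rgs1 and Rgs2 lines of the genotypes cross between 4 and 24 h, and Rgs16 rises from near 4 to above 9 by 4 h in both.

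Rgs16, which limits signalling from chemokine receptors in T cells, had the largest response to stimulation of the 8. The WT arrays read 4.03, 4.07 and 4.26 at 0 h and 9.78, 9.91 and 10.12 at 4 h. In KO they read 4.25, 4.66 and 4.92 at 0 h and 9.20, 9.73 and 9.60 at 4 h. In both genotypes every array at 4 h lay above every array at 0 h, with a rise of 5.82 in WT (SE 0.17, adjusted p = 2.95e-19, 56.4-fold) and 4.90 in KO (SE 0.17, adjusted p = 8.93e-18, 29.9-fold). From 4 to 24 h Rgs16 fell by 1.51 in WT (adjusted p = 3.19e-08) and by 1.39 in KO (adjusted p = 1.73e-07). At 24 h the WT arrays read 8.56, 8.50 and 8.22 and the KO arrays 7.94, 8.21 and 8.22, and at 72 h they read 8.13, 8.12 and 8.14 against 8.36, 7.72 and 7.63. The late levels thus stayed far above 0 h in both genotypes, by 4.01 in WT and 3.29 in KO at 72 h.

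KO and WT did not differ past the threshold in Rgs16 at any time. The differences of KO from WT were 0.49 at 0 h (95% interval 0.15 to 0.83, adjusted p = 0.152), -0.43 at 4 h (-0.77 to -0.09, adjusted p = 0.183), -0.31 at 24 h (adjusted p = 0.279) and -0.23 at 72 h (adjusted p = 0.634). At 0 h KO arrays 2 and 3 lay above all WT arrays and KO array 1 lay among them. Without KO array 1 the difference at 0 h was 0.67 and passed (adjusted p = 0.0435). The interaction, the KO rise from 0 h minus the WT rise, was -0.91 at 4 h (SE 0.23, adjusted p = 0.0728), -0.80 at 24 h (SE 0.23, adjusted p = 0.0434) and -0.72 at 72 h (SE 0.23, adjusted p = 0.098). These interactions share the 0 h arrays. With arrays 1 and 2 alone the 24 h interaction was -0.86 (adjusted p = 0.0881), and after quantile normalization again it was -0.70 (adjusted p = 0.0965). Without the mean-variance trend its adjusted p was 0.0681. The 24 h call was lost on leaving out WT array 1 or 2 or KO array 2 or 3 at 0 h, array 1 or 2 of either genotype at 24 h, or any WT array of the 72 h group, with values of -0.64 to -0.84 and adjusted p = 0.0523 to 0.13. Leaving out KO array 1 at 0 h or KO array 1 at 72 h brought the 4 h interaction past the threshold (-1.1 and -0.91, adjusted p = 0.0168 and 0.0268) and the 72 h interaction too (-0.90 and -0.94, adjusted p = 0.0238 and 0.01).

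Rgs1, a brake on chemokine receptors that holds lymphocytes in tissue, rose in both genotypes but on different schedules. At 0 h the WT arrays read 7.19, 6.89 and 6.89 and the KO arrays 7.50, 7.05 and 7.23. At 4 h they read 7.29, 7.28 and 6.99 in WT and 7.90, 8.26 and 8.42 in KO. All KO arrays at 4 h were thus above all WT arrays, while at 0 h the genotypes overlapped. At 24 h the WT arrays read 8.79, 8.77 and 8.90 and the KO arrays 8.28, 8.33 and 8.42. At 72 h they read 9.26, 9.17 and 9.19 in WT and 8.57, 8.53 and 8.67 in KO. The order had turned, with every KO array below every WT array at both late times.

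Against WT, Rgs1 in KO differed by 0.27 at 0 h (SE 0.12, adjusted p = 0.309), then was higher by 1.0 at 4 h (SE 0.12, adjusted p = 1.95e-06, 2.0-fold), lower by a log2 change of -0.48 at 24 h (SE 0.12, adjusted p = 0.00681, 1.39-fold) and of -0.61 at 72 h (SE 0.12, adjusted p = 0.000768, 1.53-fold). Over the 32 alternative settings tried the 3 calls held, with differences of 0.79 to 1.15, -0.51 to -0.38 and -0.66 to -0.59. At 4 h 7 of 13 regulatory T cell, 3 of 13 myeloid and 0 of 11 B cell markers also rose past the threshold in KO, where 3.3% of all genes did. The median differences of these lists were 0.371, 0.203 and 0.502, against 0.003 for all genes. The B cell markers were thus higher as a list although none passed singly. Of 7 T cell markers 1 fell (0.834% of all genes). The part of these markers in the Rgs1 difference was not tested. In WT the gain from 0 h was 0.20 at 4 h (adjusted p = 0.205), 1.83 at 24 h (adjusted p = 3.63e-13) and 2.21 at 72 h (adjusted p = 7.39e-15). In KO it was already 0.93 at 4 h (adjusted p = 2.32e-07), and then 1.08 at 24 h and 1.33 at 72 h (adjusted p = 1.4e-08 and 2.21e-10). The step from 4 to 24 h was 1.63 in WT and 0.15 in KO (adjusted p = 0.401), an interaction of -1.48 (SE 0.16, adjusted p = 4.72e-06) that passed under all 33 alternatives. The last step, 24 to 72 h, was 0.38 in WT (adjusted p = 0.0128) and 0.25 in KO (adjusted p = 0.172), and without WT array 1 at 72 h the WT step was 0.36 (adjusted p = 0.0518).

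The KO response of Rgs1 from 0 h exceeded the WT response by 0.73 at 4 h (SE 0.16, adjusted p = 0.0277) and was smaller at 24 h (-0.75, SE 0.16, adjusted p = 0.00635) and at 72 h (-0.88, SE 0.16, adjusted p = 0.00104). The 4 h call rested on single arrays. It was lost without WT array 1, KO array 2 or KO array 3 at 0 h, and without WT array 3, KO array 2 or KO array 3 at 4 h (values 0.62 to 0.72, adjusted p = 0.0574 to 0.0979). It was also lost with arrays 1 and 2 alone (0.56, adjusted p = 0.309), with only the groups compared (adjusted p = 0.202) and without the mean-variance trend (adjusted p = 0.0618). With the KO group at 0 h reduced to array 2, the interactions were -0.54 at 24 h and -0.67 at 72 h, both smaller in size than with all arrays. In that setting, here and for the genes below, the lone array is assumed to vary like the other groups. The standard errors are larger by construction, so a lost call alone does not show a weaker effect, and the values themselves are to be compared. With arrays 1 and 2 alone the 24 h interaction was -0.71 (adjusted p = 0.0553).

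Rgs2, which acts mainly on alpha subunits of the Gq class, was highest in unstimulated cells and dipped at 24 h. At 0 h the arrays read 9.55, 9.29 and 9.19 in WT and 9.36, 9.52 and 9.40 in KO, and at 4 h 9.0, 8.62 and 8.32 in WT and 9.07, 9.31 and 9.28 in KO. At 24 h the WT arrays read 8.48, 8.24 and 8.33, and the KO arrays 6.83, 7.40 and 7.24. At 72 h they read 9.0, 8.78 and 8.83 in WT and 8.15, 8.77 and 8.41 in KO. The genotypes overlapped at 0 h, KO was the higher at 4 h without overlap, and KO was the lower at 24 h and 72 h without overlap.

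The difference of KO from WT in Rgs2 was 0.08 at 0 h (SE 0.15, adjusted p = 0.906), 0.57 at 4 h (SE 0.15, adjusted p = 0.0274), -1.19 at 24 h (SE 0.15, adjusted p = 6.16e-06, 2.29-fold lower) and -0.42 at 72 h (SE 0.15, adjusted p = 0.112). The 24 h call held under all 32 alternatives, although the mean of both Rgs2 probe sets gave -0.68. The second probe set averaged 3.07, below the 40th percentile of mean levels (3.24). A mean with it shrinks a difference by construction, so a Rgs2 call lost that way is not read as a weaker effect. At 24 h 6 of 13 regulatory T cell, 3 of 11 B cell and 0 of 13 myeloid markers rose in KO, where 3.9% of all genes rose. Of 7 T cell markers 3 rose and 1 fell, and 2 of 6 CD8 T and natural killer markers fell (7.38% of all genes). The part of these markers in the 24 h Rgs2 difference was not tested. The 4 h call was lost with the mean of both probe sets (0.37, adjusted p = 0.111) and without WT array 2 or 3 or KO array 2 or 3 at 4 h (0.41 to 0.56, adjusted p = 0.0621 to 0.162). It was also lost with arrays 1 and 2 alone (0.38, adjusted p = 0.401), with only the groups compared (adjusted p = 0.0942) and without the mean-variance trend (adjusted p = 0.0522). Without KO array 2 at 72 h the difference at that time passed (-0.59, adjusted p = 0.0237).

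In WT, Rgs2 fell by 0.70 from 0 to 4 h (adjusted p = 0.000483) and was below 0 h at 24 h (-0.99, adjusted p = 3.89e-06). In KO the change by 4 h was -0.20 (adjusted p = 0.379), and the fall came between 4 and 24 h, when it dropped by 2.06 (adjusted p = 2.75e-11). The WT step over that interval was -0.29 (adjusted p = 0.15), and -0.46 without WT array 3 at 4 h (adjusted p = 0.0248). The interaction of that step was -1.77 (SE 0.21, adjusted p = 1.73e-05), and it passed under all 33 alternatives (-1.94 to -1.05). Both genotypes then recovered by 72 h, by 0.52 in WT (adjusted p = 0.00997, but 0.45 and adjusted p = 0.0557 without WT array 1 at 72 h) and by 1.29 in KO (adjusted p = 3.39e-07). That recovery was larger in KO by 0.77 (SE 0.21, adjusted p = 0.0229), and by 0.82 with arrays 1 and 2 alone (adjusted p = 0.115). This call was lost without array 1 of either genotype at 24 h, or KO array 2, WT array 2 or WT array 3 of the 72 h groups (0.61 to 0.75, adjusted p = 0.056 to 0.0953), and with the mean of both probe sets (0.41, adjusted p = 0.19). At 72 h Rgs2 was still below 0 h, with changes of -0.47 in WT (adjusted p = 0.0129) and -0.98 in KO (adjusted p = 5.09e-06). The WT value was -0.37 without WT array 1 at 0 h (adjusted p = 0.0853) and -0.43 without WT array 2 at 72 h (adjusted p = 0.0537). Counted from 0 h, the interaction was 0.49 at 4 h (adjusted p = 0.387), -1.27 at 24 h (SE 0.21, adjusted p = 0.000661) and -0.50 at 72 h (adjusted p = 0.259), and the 24 h call held under all 34 alternatives.

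Rgs3, which acts on alpha subunits of the Gi and Gq classes, was near the middle of the scale and moved most between 4 and 24 h. At 0 h the arrays read 5.49, 5.43 and 5.50 in WT and 5.26, 5.28 and 5.27 in KO, and at 4 h 5.83, 5.89 and 5.83 in WT and 5.54, 5.61 and 5.16 in KO. At 24 h they read 4.67, 4.63 and 4.96 in WT and 4.75, 4.89 and 4.95 in KO, and at 72 h 5.10, 4.80 and 4.77 against 4.81, 4.87 and 4.83. KO lay below WT without overlap at 0 and 4 h, and the genotypes overlapped later. From 4 to 24 h Rgs3 dropped by 1.1 in WT (SE 0.12, adjusted p = 2.11e-08) and by 0.57 in KO (SE 0.12, adjusted p = 0.000366). In WT Rgs3 rose by 0.38 at 4 h (adjusted p = 0.0126) and was below 0 h at 24 h (-0.72, adjusted p = 1.06e-05) and 72 h (-0.58, adjusted p = 0.000166). The KO changes were 0.17 (adjusted p = 0.353), -0.40 (adjusted p = 0.00748) and -0.43 (adjusted p = 0.00348), and with the KO group at 0 h reduced to array 2 the 2 late ones were -0.41 and -0.44 (adjusted p = 0.0862 and 0.0534). The difference of KO from WT was past the threshold at 4 h only (-0.41, SE 0.12, adjusted p = 0.0443), and it was -0.20 at 0 h (adjusted p = 0.524), 0.11 at 24 h and -0.05 at 72 h. That call was fragile. It was lost on leaving out any array at 0 h, any WT array at 4 h, KO array 1 or 3 at 4 h, KO array 2 or 3 at 24 h, WT array 2 at 72 h or any KO array at 72 h (-0.27 to -0.46, adjusted p = 0.0503 to 0.271). With arrays 1 and 2 alone the 4 h difference was -0.28 (adjusted p = 0.353), and with only the groups compared its adjusted p was 0.268. No interaction of Rgs3 passed. The closest, the step from 4 to 24 h, was 0.53 (adjusted p = 0.0952), and 0.63 without WT array 3 at 24 h (adjusted p = 0.0463).

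Rgs10, a small RGS protein selective for alpha subunits of the Gi class, fell from 4 h onwards and fell less in KO. At 0 h the WT arrays read 8.67, 8.68 and 8.65 and the KO arrays 8.56, 8.49 and 8.58, and at 4 h 8.58, 8.56 and 8.45 against 8.55, 8.61 and 8.59. At 24 h they read 7.82, 7.85 and 7.73 in WT and 8.14, 8.02 and 7.90 in KO. At 72 h they read 6.91, 6.87 and 6.94 in WT and 7.26, 7.17 and 7.18 in KO. KO was below WT at 0 h and above it at 24 and 72 h, each time without overlap, and the genotypes overlapped at 4 h.

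By 72 h Rgs10 had fallen by 1.76 from 0 h in WT (SE 0.07, adjusted p = 1.38e-17, 3.38-fold) and by 1.34 in KO (SE 0.07, adjusted p = 3.57e-15, 2.53-fold). The differences of KO from WT were -0.12 at 0 h (adjusted p = 0.49), 0.06 at 4 h (adjusted p = 0.761), 0.22 at 24 h (SE 0.07, adjusted p = 0.0298) and 0.30 at 72 h (SE 0.07, adjusted p = 0.00448). At the same 2 times the T cell receptor complex genes Cd3d (0.40 and 0.37, adjusted p = 0.0017 and 0.0037), Cd3e (0.20 and 0.35, adjusted p = 0.0271 and 0.000239) and Cd3g (0.25 and 0.30, adjusted p = 0.00134 and 0.000209) were also higher in KO. Of the 7 T cell markers these were the 3 that rose. Thy1 was at -0.56 at 24 h (adjusted p = 0.00262) and -0.29 at 72 h (adjusted p = 0.192), and Cd5 at -0.04 at both times. At 72 h 3 of 13 regulatory T cell and 1 of 11 B cell markers also rose in KO, where 2.56% of all genes rose. At that time 3 of 6 CD8 T and natural killer markers and 1 of 13 myeloid markers fell (3.78% of all genes). The relation of these markers to the Rgs10 difference was not tested. The interaction was 0.18 at 4 h (adjusted p = 0.517), 0.34 at 24 h (SE 0.09, adjusted p = 0.03) and 0.42 at 72 h (SE 0.09, adjusted p = 0.00749). Both 72 h calls held under every alternative tried, at 0.27 to 0.34 for the difference and 0.39 to 0.49 for the interaction. The 24 h difference was lost without WT array 1 or 3 or KO array 1 or 2 at 24 h (0.16 to 0.23, adjusted p = 0.0575 to 0.219). It was also lost with arrays 1 and 2 alone (0.24, adjusted p = 0.088) and with only the groups compared (adjusted p = 0.149). The 24 h interaction was lost without WT array 1 or 2 or KO array 2 at 0 h, WT array 3 at 24 h, or KO array 1 or 2 at 24 h (0.28 to 0.34, adjusted p = 0.0558 to 0.111). It was also lost with arrays 1 and 2 alone (0.39, adjusted p = 0.0802), with only the groups compared (adjusted p = 0.0767) and without the mean-variance trend (adjusted p = 0.0528).

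Rgs14, which is also selective for the Gi class and carries a second site that binds the inactive alpha subunit, was a gene of unstimulated cells. The WT arrays read 7.80, 7.90 and 8.01 at 0 h and 5.69, 5.36 and 5.02 at 4 h, and the KO arrays 7.66, 8.24 and 7.87 and then 5.55, 5.70 and 5.17. The change by 4 h was -2.55 in WT (SE 0.15, adjusted p = 2.04e-13, 5.85-fold lower) and -2.45 in KO (SE 0.15, adjusted p = 6.68e-13, 5.46-fold lower), and no array at 4 h reached the 0 h arrays. At 24 h the WT arrays read 5.35, 5.50 and 5.69 and the KO arrays 6.38, 6.38 and 6.17. At 72 h they read 5.70, 5.81 and 5.72 in WT and 5.57, 5.56 and 5.43 in KO. KO thus lay above WT at 24 h and below it at 72 h, both without overlap, and the genotypes overlapped at 0 and 4 h.

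The 24 h difference of Rgs14 was 0.80 (SE 0.15, adjusted p = 0.000864, 1.74-fold) and held under all 32 alternatives (0.72 to 0.96). At that time 3 of 7 T cell, 6 of 13 regulatory T cell and 3 of 11 B cell markers also rose in KO, where 3.9% of all genes rose. Of the same 7 T cell markers 1 fell, and 2 of 6 CD8 T and natural killer markers fell (7.38% of all genes). The part of these markers was not tested. The Rgs14 differences were 0.02 at 0 h, 0.12 at 4 h and -0.22 at 72 h (adjusted p = 0.981, 0.781 and 0.594). In KO the level rose by 0.83 between 4 and 24 h (adjusted p = 8.27e-05) and fell by 0.79 by 72 h (adjusted p = 0.000317), while the WT steps of 0.15 and 0.23 did not pass (adjusted p = 0.498 and 0.301). The interaction of the fall from 24 to 72 h was -1.02 (SE 0.21, adjusted p = 0.00274) and passed under all 33 alternatives. The interaction of the step from 4 to 24 h was 0.68 (adjusted p = 0.094), and 0.85 without WT array 3 at 4 h (adjusted p = 0.0252). The interaction from 0 to 24 h was 0.78 (SE 0.21, adjusted p = 0.0297). It was lost without WT array 2 or 3 or KO array 1 or 3 at 0 h, or without array 1 or 2 of either genotype at 24 h (0.65 to 0.78, adjusted p = 0.055 to 0.0875). With the KO group at 0 h reduced to array 2 its value was smaller, at 0.46.

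Rgs19, a regulator of Gi class alpha subunits found on vesicles, alternated between higher levels at 0 and 24 h and lower ones at 4 and 72 h. At 0 h the arrays read 9.26, 9.27 and 9.31 in WT and 9.17, 9.15 and 9.38 in KO, and at 4 h 8.75, 8.65 and 8.79 against 8.66, 8.62 and 8.65. At 24 h they read 9.19, 9.27 and 9.0 in WT and 9.0, 9.0 and 8.79 in KO, and at 72 h 8.62, 8.67 and 8.69 against 8.54, 8.44 and 8.55. The genotypes were apart without overlap at 72 h only. Each of the 3 steps, 0 to 4 h, 4 to 24 h and 24 to 72 h, passed in both genotypes, at -0.55, 0.42 and -0.49 in WT and -0.59, 0.28 and -0.42 in KO (adjusted p = 0.00342 or less). The 24 h difference of KO from WT was -0.23 (SE 0.07, adjusted p = 0.0439). It was lost without WT array 2 at 0 h, WT array 1 or 2 or KO array 1 or 3 at 24 h, any WT array at 72 h or KO array 3 at 72 h (-0.16 to -0.26, adjusted p = 0.0513 to 0.238). After quantile normalization again the 24 h difference was -0.16 (adjusted p = 0.184). Its adjusted p was 0.0899 without the mean-variance trend, 0.141 with only the groups compared and 0.0567 with arrays 1 and 2 alone. The differences at 0, 4 and 72 h were -0.05, -0.09 and -0.15, and no interaction passed.

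Rgs18, a regulator best known in platelets and their precursors, read 3.09 to 3.37 on all 24 arrays. Its level lay under the 40th percentile of mean levels, and none of the 20 comparisons passed the threshold. The 95% intervals of the KO and WT difference ran from -0.22 to 0.17 at 0 and 4 h and from -0.16 to 0.23 at 72 h. A low signal on this scale compresses changes, so the intervals hold for the probe set's signal and not for the transcript as such. Markers of platelets and erythroid cells averaged 3.03 to 3.38, and 0 of their 6 measured members passed in any KO and WT comparison.

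The order of the 8 groups differed from gene to gene. For Rgs1 it ran from WT at 72 h (9.20) through WT at 24 h, KO at 72 h, KO at 24 h, KO at 4 h, KO at 0 h and WT at 4 h to WT at 0 h (6.99), and 3 of the 7 neighbouring pairs overlapped (KO at 24 and 4 h, KO at 0 h with WT at 4 h, and WT at 4 and 0 h). For Rgs2 it ran from KO at 0 h (9.42) through WT at 0 h, KO at 4 h, WT at 72 h, WT at 4 h, KO at 72 h and WT at 24 h to KO at 24 h (7.16). There 5 of 7 pairs overlapped, and the gap of 1.19 below WT at 24 h set KO at 24 h apart from all other groups. For Rgs10 only 2 pairs overlapped, KO at 4 h with KO at 0 h and KO at 0 h with WT at 4 h, below WT at 0 h (8.67) and above KO at 24 h (8.02), WT at 24 h (7.80), KO at 72 h (7.21) and WT at 72 h (6.91).

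For Rgs14 the order began with KO and WT at 0 h (7.92 and 7.90, overlapping), KO at 24 h (6.31) and WT at 72 h (5.74), and the last 4, KO at 72 h, WT at 24 h, KO at 4 h and WT at 4 h, lay between 5.52 and 5.36 and overlapped with their neighbours. For Rgs16 it ran from WT at 4 h (9.94), KO at 4 h (9.51) and WT at 24 h (8.43), which did not overlap, to WT at 72 h, KO at 24 h and KO at 72 h (8.13, 8.12 and 7.90, overlapping) and to KO and WT at 0 h (4.61 and 4.12, overlapping). For Rgs3 the order was WT at 4 h (5.85), then WT at 0 h, KO at 4 h and KO at 0 h (5.47 to 5.27), then WT at 72 h, KO at 24 h, KO at 72 h and WT at 24 h (4.89 to 4.75). Neighbours overlapped within each of those sets and not between them. For Rgs19 it ran from WT at 0 h (9.28) through KO at 0 h, WT at 24 h, KO at 24 h, WT at 4 h, WT at 72 h and KO at 4 h to KO at 72 h (8.51), and all neighbours but the last pair overlapped. For Rgs18 all 7 pairs overlapped.

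Counted over the 8 members, 0 passed the threshold between KO and WT at 0 h in limma's fit, where 2.34% of all genes passed. At an unadjusted p below 0.05 there were 2, Rgs1 and Rgs16, where 12.4% of all genes lay, and the arrays of 2 members, Rgs3 and Rgs10, did not overlap, as held for 16.9% of all genes. At 4 h 3 of 8 passed, against 4.13% of all genes, and 4 did not overlap (16.2% of all genes). Rgs1 and Rgs2 were the higher (3.3% of all genes) and Rgs3 the lower (0.834%). At 24 h 5 of 8 passed against 11.3% of all genes, and 5 did not overlap (27.2% of all genes). Rgs10 and Rgs14 were higher in KO (3.9% of all genes) and Rgs1, Rgs2 and Rgs19 lower (7.38%). At 72 h 2 of 8 passed against 6.33% of all genes, and 5 did not overlap (24.6% of all genes). Rgs10 was the higher (2.56% of all genes) and Rgs1 the lower (3.78%). The median difference of the members was -0.004, 0.014, -0.12 and -0.187 at the 4 times, and that of all genes 0.004, 0.003, -0.053 and 0.01.

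**Figure D2:**
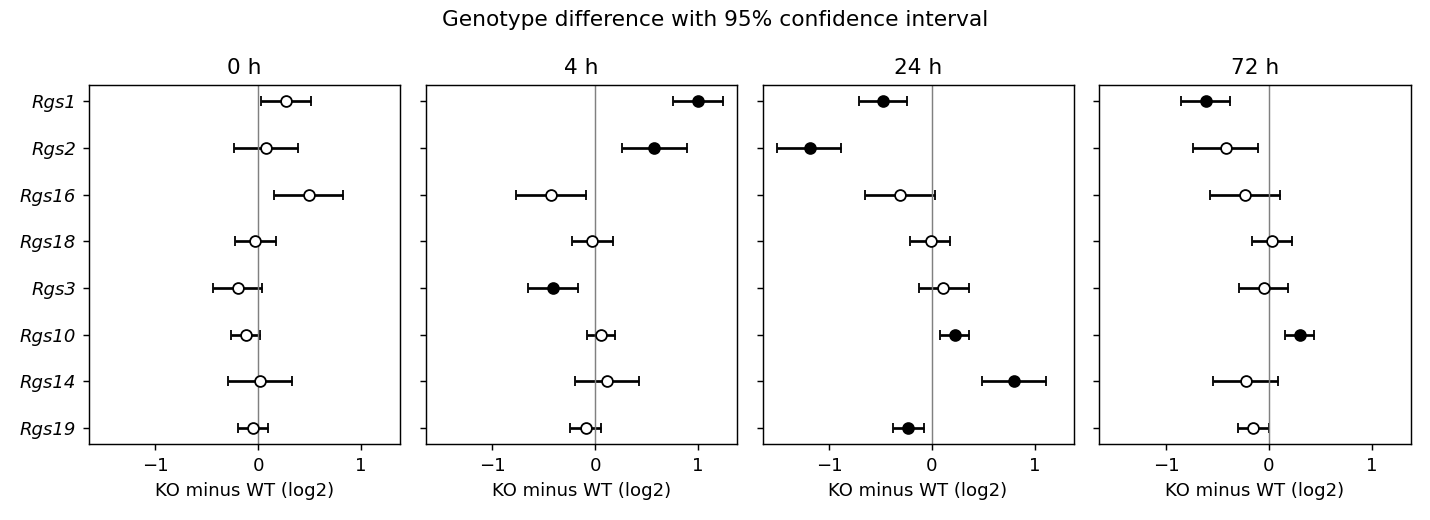
Difference of KO from WT in each RGS gene (log2, horizontal axis) at 0, 4, 24 and 72 h, with its 95% confidence interval from limma; filled points are past the threshold. Rgs1 lies at 1.0 at 4 h and at -0.61 at 72 h, Rgs2 at 0.57 at 4 h and at -1.19 at 24 h, and Rgs18 stays near 0.

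Averaged over the 4 times, 3 of 8 members passed against 9.8% of all genes, 1 higher (5.46%) and 2 lower (4.34%). Rgs10 was higher in KO by 0.11 (SE 0.03, adjusted p = 0.0275), and Rgs2 (-0.24, adjusted p = 0.042) and Rgs19 (-0.13, SE 0.04, adjusted p = 0.0211) were lower. Rgs1, whose differences had opposite signs at 4 h and later, averaged 0.05 (adjusted p = 0.743). The Rgs2 call was lost without WT array 1 or 2 or KO array 1 or 3 at 0 h, WT array 1 or 2 or KO array 1 at 4 h, WT array 1 or 3 or KO array 1 at 24 h, or array 1 or 3 of either genotype at 72 h (-0.20 to -0.25, adjusted p = 0.0527 to 0.0933). The Rgs10 call was lost without WT array 3 at 4 h, WT array 3 or KO array 1 at 24 h, WT array 2 at 72 h or KO array 1 at 72 h (0.10 to 0.11, adjusted p = 0.0502 to 0.0629). With arrays 1 and 2 alone the averages were -0.32 for Rgs2 (adjusted p = 0.0664) and 0.11 for Rgs10 (adjusted p = 0.163). Without the mean-variance trend the Rgs19 average had an adjusted p of 0.0544. Without WT array 1 at 4 h the average for Rgs14 passed (0.22, adjusted p = 0.0478).

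Stimulation moved most members, as it moved a large share of all genes. In WT 5 members passed from 0 to 4 h (34.7% of all genes), 6 to 24 h (39.7%) and 7 to 72 h (40.5%), and in KO 4 (31.1%), 7 (34%) and 7 (39.7%). Rgs16 rose at every time in both genotypes, whereas Rgs14 was below its 0 h level at every time in both. Between 4 and 24 h 5 members passed in WT (32.6% of all genes) and 6 in KO (28.3%), and between 24 and 72 h 4 in WT (27.4%) and 4 in KO (17.7%). The interaction passed in 1 member at 4 h (0.726% of all genes), 5 at 24 h (5.87%) and 2 at 72 h (3.91%). Over the step from 4 to 24 h 2 members passed (2.23% of all genes) and over that from 24 to 72 h 2 (8.46%).

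**Figure D3:**
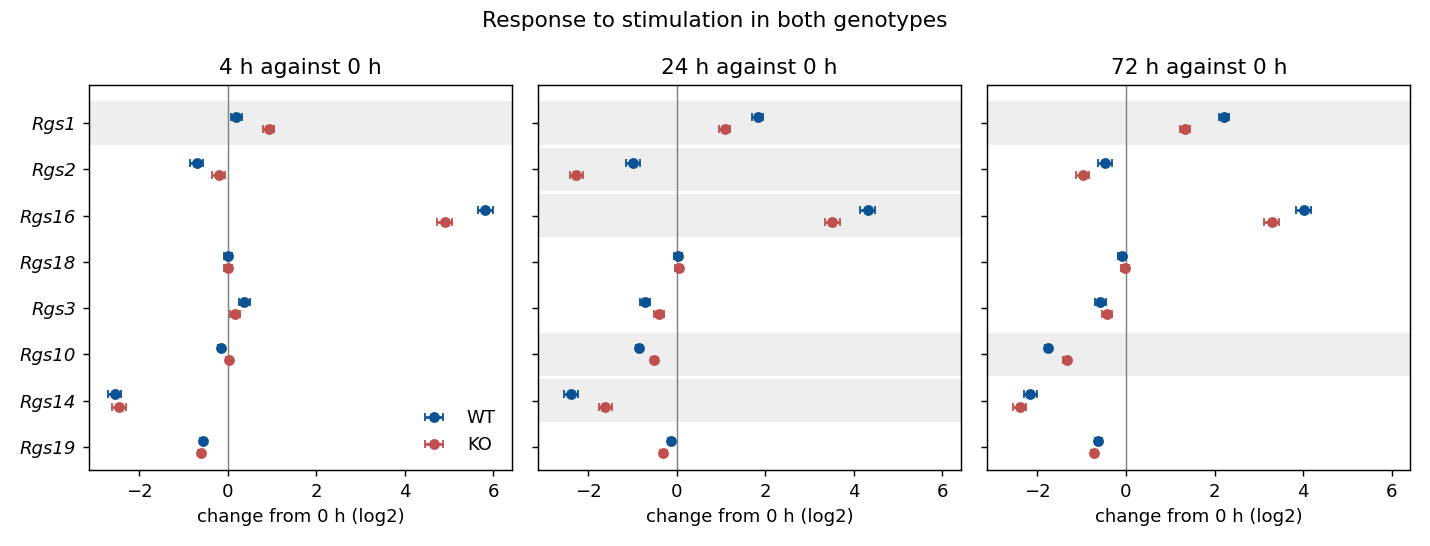
Change of each RGS gene from 0 h (log2, horizontal axis) at 4, 24 and 72 h in WT (blue) and KO (red), with the SE as bars; grey bands mark genes whose interaction passed the threshold. At 24 h the Rgs2 change was -0.99 in WT and -2.27 in KO, and the Rgs1 change 1.83 and 1.08.

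Transcripts of other cells and of regulatory T cells were higher in KO at some of these times. For comparison, of all 22180 genes 390, 732, 865 and 567 rose at 0, 4, 24 and 72 h, and 128, 185, 1636 and 838 fell. In the mean of the 4 times 1212 of all genes rose and 962 fell. Of 13 regulatory T cell markers 6, 7, 6 and 3 rose at 0, 4, 24 and 72 h, and their mean level ran from 6.20 to 6.36 in WT and from 6.76 to 6.95 in KO at 4 h, and from 6.50 to 6.65 and from 6.93 to 7.22 at 24 h. Their summed levels at 4 h were 80.6 to 82.7 in WT and 87.9 to 90.4 in KO. Of 11 B cell markers 2, 0, 3 and 1 rose, and 9 in the mean of the 4 times. Their summed levels were 42.2 to 51.1 in WT and 48.2 to 56.4 in KO at 0 h, and 39.2 to 45.2 and 43.9 to 49.1 at 4 h, overlapping at both. At 24 h they were at most 43.0 in WT and 44.5 to 51.1 in KO, and at 72 h 38.8 to 40.3 and 40.6 to 47.8, without overlap. Of 13 myeloid markers 4, 3, 0 and 0 rose and 1 fell at 72 h, with summed levels of 42.3 to 47.8 in WT and 46.6 to 54.0 in KO at 4 h. Of 7 T cell markers 0, 0, 3 and 3 rose and 1, 1, 1 and 0 fell. Cd5 fell at 0 h (-0.35, adjusted p = 6.09e-05), and Thy1 at 4 h (-0.50, adjusted p = 0.0126) and 24 h (-0.56, adjusted p = 0.00262). Of 6 markers of CD8 T and natural killer cells 2 fell at 24 h and 3 at 72 h. No marker list was at 0, as the scale has no zero and the files no detection calls. KO array 2 at 4 h had the lowest B cell, myeloid and regulatory T cell levels among the KO arrays of that time (3.99, 3.58 and 6.76 on average). The WT arrays at 4 h averaged 3.56 to 4.11, 3.25 to 3.68 and 6.20 to 6.36. Rgs1 on that KO array, at 8.26, lay between the other KO arrays at 4 h. That is 1 array, and its regulatory T cell level was above every WT array of that time, so no conclusion is drawn from it. The part of the markers in the RGS differences was not tested.

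Rgs2, Rgs13, Rgs1, Rgs21 and Rgs18 lie side by side on chromosome 1 within 776 kb in the RefSeq table (GRCm38.p6), with Rgs2 at 143999338 to 144004149, Rgs1 at 144244669 to 144249104 and Rgs18 at 144752683 to 144775427. Only Rgs2 and Rgs1 of these 5 neighbours passed between KO and WT at any time, where 2.34% to 11.3% of all genes passed at a single time. Rgs13 lay at 2.09 to 2.29 and Rgs21 at 2.56 to 2.65 in all groups. Rgs13, Rgs21 and Rgs18 had mean levels below the 40th percentile, where changes are compressed, so a difference in them could be missed. Beyond Rgs2, the nearest measured genes were Uchl5 (-0.29 at 24 h, adjusted p = 0.028) and Ro60, for which no difference passed. Rgs16 lies apart on the same chromosome, at 153740353 to 153745468, between Rgs8 and Rgsl1. Neither of these neighbours passed at any time, and both had mean levels below the 40th percentile. Rgs3 lies on chromosome 4, Rgs10 on 7, Rgs14 on 13 and Rgs19 on 2, and of the 2 nearest measured genes on either side of each, 0 passed between KO and WT, where 2.34% to 11.3% of all genes did.

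Upstream windows of 250 bases were present for 5 of the 8 members in the RefSeq table of promoters (GRCm38.p6), with 8 windows in all. Rgs1, Rgs14 and Rgs18 had none. The windows of Rgs16, the member with the largest rise, and of Rgs2 and Rgs10, both of which differed between the genotypes, are shown from 5′ to 3′ up to the base before the start site, with each GC box (GGGCGG on either strand) in capitals. Rgs16 is chr1:153740103-153740352 on the plus strand, Rgs2 is chr1:144004150-144004399 on the minus strand and Rgs10 is chr7:128418173-128418422 on the minus strand. The Rgs10 window lies within the Rgs10 gene as annotated (128373621 to 128419506), so the start that it precedes is an internal one.
Rgs16: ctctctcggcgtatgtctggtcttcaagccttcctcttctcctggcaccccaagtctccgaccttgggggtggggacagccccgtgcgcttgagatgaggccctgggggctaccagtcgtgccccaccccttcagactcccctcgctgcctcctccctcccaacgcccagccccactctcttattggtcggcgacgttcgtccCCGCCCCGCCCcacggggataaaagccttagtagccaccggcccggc
Rgs2: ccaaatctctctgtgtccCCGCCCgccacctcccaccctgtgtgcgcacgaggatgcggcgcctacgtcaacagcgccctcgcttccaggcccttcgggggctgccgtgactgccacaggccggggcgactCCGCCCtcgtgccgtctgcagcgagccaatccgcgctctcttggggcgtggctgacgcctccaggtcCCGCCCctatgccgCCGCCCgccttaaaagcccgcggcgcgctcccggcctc
Rgs10: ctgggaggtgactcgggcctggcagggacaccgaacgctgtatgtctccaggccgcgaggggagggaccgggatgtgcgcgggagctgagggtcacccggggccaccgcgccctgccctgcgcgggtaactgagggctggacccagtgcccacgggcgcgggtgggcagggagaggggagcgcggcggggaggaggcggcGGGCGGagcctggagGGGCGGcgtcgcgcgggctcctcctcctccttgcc

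The Rgs16 window held 2 GC boxes that share 1 base, starting 47 and 42 bases before the start, the Rgs2 window 4, and the Rgs10 window 2. The GC content was 66.4%, 72.4% and 76.4%. A GC box was found in 32.7% of the 32817 windows of that length in the table. Other motifs were also searched on both strands. None of the 3 windows held AP-1 (TGANTCA, in 6.75% of windows), CRE (TGACGTCA, 1.55%), an E-box (CACGTG, 6.02%), the NFAT core (GGAAA, 55.6%) or TATAAA (12.4%). TATAAA occurred once in each of the 2 windows of Rgs3, and 2 of the 3 windows of Rgs19 held a GC box. Those 2 Rgs19 windows overlap and share a GC box. The Rgs3 window from 62619422 also held a GC box and an NFAT core. NFAT cores lay in the Rgs19 windows from 181691818 and 181693978 too. These matches describe the letters in the windows only, and no binding was measured.

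The genes with the most similar profile over the 24 arrays, among those whose group means spanned at least 1 log2 unit, differed from member to member. Pearson correlations are given as a description, since the arrays share the stimulation. For Rgs1 they were Mdfic (0.956), Asf1a, a histone chaperone (0.94), and Rtca (0.935). For Rgs2 they were Sfmbt2 (0.904), Tnfaip3, an inhibitor of NF-kB signalling (0.895), and the splicing factor gene Srsf5 (0.838). Rgs10 resembled Il6st, the shared signalling chain of interleukin 6 receptors (0.992), Lncpint (0.979) and Cd3e, a chain of the T cell receptor complex (0.977). Rgs14 resembled Syne1 (0.979), Itgb7, the beta 7 integrin (0.974), and Gab3 (0.968), and Rgs16 resembled Gfod1 (0.986) and the RNA processing genes Pus7 (0.984) and Mphosph10 (0.983). For Rgs3 they were Ncmap (0.94), Gnptg (0.921) and Hs3st3b1 (0.917), and for Rgs19 Sgk3 (0.923), Fndc10 (0.918) and Hspbap1 (0.91). The flat Rgs18 correlated with no gene above 0.534 (Cdk3), and then with Tpgs2 (0.463) and Zcchc17 (0.461).

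The other genes of the pathway are given from lists of regulators, G proteins, receptors and effectors. Of 21 further RGS and RGS-like genes 0, 3, 0 and 2 rose in KO at 0, 4, 24 and 72 h and 0 fell. The shares past the threshold were 0%, 14.3%, 0% and 9.52%, against 2.34%, 4.13%, 11.3% and 6.33% of all genes. Rgs9, best known in neurons, rose by 0.95 at 4 h (adjusted p = 0.00737) and by 1.5 at 72 h (adjusted p = 1.67e-05). Its 72 h arrays read 4.61, 6.07 and 5.46 in KO and 3.77, 3.89 and 3.98 in WT, without overlap. Without KO array 1 at 4 h the 4 h value was 0.86 (adjusted p = 0.0503), and with arrays 1 and 2 alone it was 1.05 (adjusted p = 0.0822). Axin2, a scaffold of Wnt signalling with an RGS domain, rose by 0.54 at 4 h and 0.45 at 72 h, and the mean of its probe sets gave 0.28 and 0.24 (adjusted p = 0.113 and 0.184). The Axin2 calls were also lost with only the groups compared at 4 h (adjusted p = 0.117) and with arrays 1 and 2 alone at 72 h (adjusted p = 0.105). Snx14 rose by 0.54 at 4 h (adjusted p = 0.000364).

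Among the G proteins that RGS proteins act on, 1 of 13 alpha subunit genes passed. Gna13 was lower in KO at 24 h (-0.47, adjusted p = 0.00147) and 72 h (-0.51, adjusted p = 0.000652). That is 7.69% of the list at each of these times, against 11.3% and 6.33% of all genes. Of 14 measured beta and gamma subunit genes 0, 2, 0 and 0 rose and 0, 0, 1 and 2 fell at the 4 times. In either direction these were 0%, 14.3%, 7.14% and 14.3%, against 2.34%, 4.13%, 11.3% and 6.33% of all genes. Gng12 (-1.16, adjusted p = 4.32e-06) and Gnb5, the partner of Rgs9 class proteins (-0.72, adjusted p = 0.00138), were lower at 72 h. Gng2 (0.52, adjusted p = 0.00907) and Gnb4 (0.54, adjusted p = 0.0336) were higher at 4 h. The Gnb4 call was lost without WT array 1 or 2 or KO array 1 or 2 at 4 h (0.41 to 0.53, adjusted p = 0.0949 to 0.184), and after quantile normalization again Gnb4 was at 0.38 and Gng2 at 0.40 (adjusted p = 0.179 and 0.0819). With only the groups compared the Gnb4 and Gng2 calls were lost (adjusted p = 0.288 and 0.156). With arrays 1 and 2 alone the Gnb5 call was lost (-0.58, adjusted p = 0.0709). At 24 h Gng12 was at -0.42 (adjusted p = 0.0702), and past the threshold without WT array 1 or 2 at 0 h (adjusted p = 0.0292 and 0.0118).

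Of 24 measured receptor genes 2, 5, 9 and 6 were higher in KO at the 4 times and 1, 2, 2 and 2 were lower, with median differences of 0.016, 0.062, 0.296 and 0.088. In either direction 12.5%, 29.2%, 45.8% and 33.3% of the list passed, against 2.34%, 4.13%, 11.3% and 6.33% of all genes. S1pr1, the receptor that guides T cells out of lymphoid organs, was at 8.08, 7.40 and 7.31 in KO and 6.38, 5.97 and 5.80 in WT at 24 h, higher by 1.55 (adjusted p = 5.28e-07). Ptger2, a prostaglandin E2 receptor, was lower at 24 h (-1.5, adjusted p = 2.59e-06) and 72 h (-1.14, adjusted p = 8.2e-05), and its 4 h difference of -0.51 (adjusted p = 0.118) was -0.81 without WT array 1 at 4 h (adjusted p = 0.00166). The chemokine receptor gene Ccr4 was lower at 4 h (-1.57, adjusted p = 2.25e-07) and higher at 72 h (0.77, adjusted p = 0.00227). Ccr6 was higher at 72 h (1.61, adjusted p = 1.92e-09).

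Of 11 measured genes of receptor kinases, arrestins and GPSM proteins 1 rose at 4 h and 1 at 24 h. They were Arrb1, an arrestin that uncouples receptors (0.47, adjusted p = 0.00535), and Gpsm3 (0.45, adjusted p = 0.00773). That is 9.09% of the list at each time, against 4.13% of all genes at 4 h and 11.3% at 24 h. Without KO array 1 at 4 h the Arrb1 value was 0.37 (adjusted p = 0.0593), and without KO array 1 at 24 h that of Gpsm3 was 0.37 (adjusted p = 0.0725). The Arrb1 call was also lost after quantile normalization again (0.35, adjusted p = 0.0696). It was lost too with only the groups compared (adjusted p = 0.123) and with arrays 1 and 2 alone (adjusted p = 0.0562). At 72 h Gpsm3 was at 0.32 (adjusted p = 0.0935), and at 0.44 without WT array 3 (adjusted p = 0.022).

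Of 28 measured effector genes 0, 2, 7 and 1 rose and 1, 0, 3 and 2 fell at the 4 times. In either direction 3.57%, 7.14%, 35.7% and 10.7% of the list passed, against 2.34%, 4.13%, 11.3% and 6.33% of all genes. Adcy6, an enzyme that makes cyclic AMP and is inhibited by Gi, was higher in KO at 4 h (1.28, adjusted p = 1.48e-06) and 24 h (0.70, adjusted p = 0.00183). At 0 h its difference was 0.52 (adjusted p = 0.0588), and 0.71 without KO array 2 at 0 h and 0.52 without WT array 3 at 4 h (adjusted p = 0.00461 and 0.0403). Pde7a, which degrades cyclic AMP, was at 0.29 at 4 h (adjusted p = 0.0765, and 0.39 with adjusted p = 0.0155 without WT array 1), and lower at 24 h (-0.39, adjusted p = 0.00548) and 72 h (-0.92, adjusted p = 6.99e-08). Prkar2a, a regulatory subunit of the kinase that cyclic AMP activates, was at -0.30 at 4 h (adjusted p = 0.0609), at -0.36 without WT array 1 or without KO array 3 at 4 h (adjusted p = 0.0419 and 0.0369), and lower at 24 h (-0.72, adjusted p = 5.68e-06). Arhgef11, which has an RGS-like domain, was higher at 72 h (0.75, adjusted p = 0.000166).

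**Figure D4:**
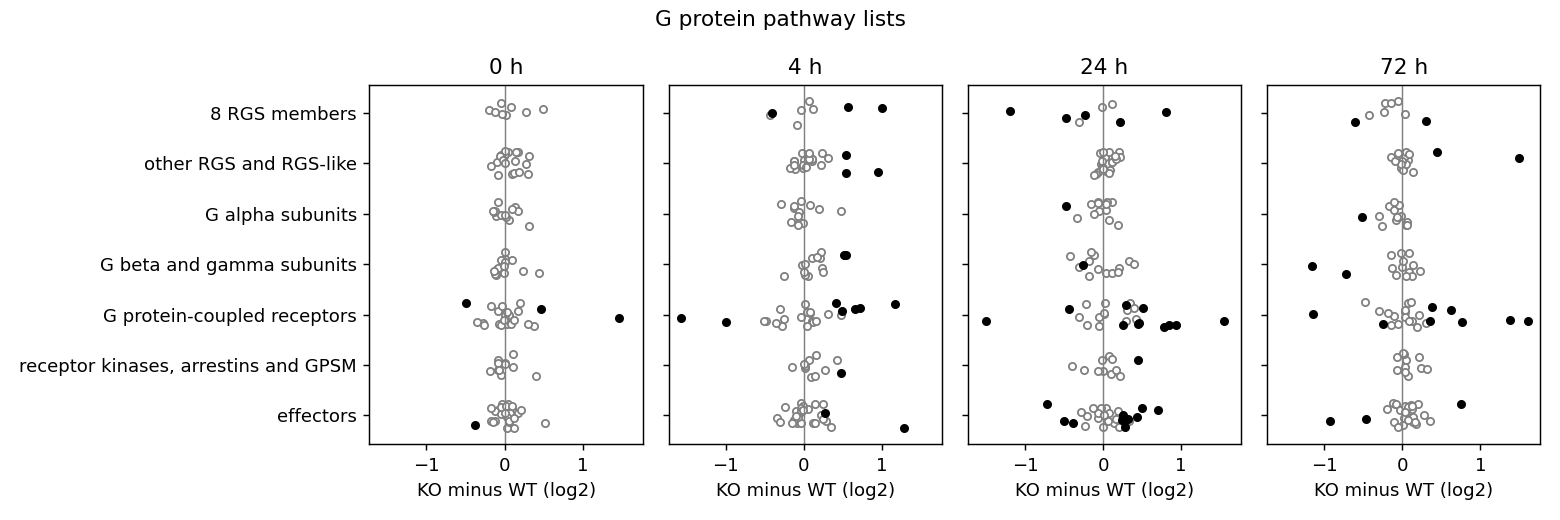
Difference of KO from WT (log2, horizontal axis) at 0, 4, 24 and 72 h for the 8 RGS members and 6 lists of G protein pathway genes (rows, points spread vertically for visibility); each point is a gene and filled points are past the threshold. At 24 h 5 of 8 members, 11 of 24 receptor genes and 0 of 21 other RGS genes are filled, where 11.3% of all genes passed, and 12 of those 21 have mean levels below the 40th percentile of all genes.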

How the data were processed

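RNA of 24 samples was measured on Affymetrix arrays. The deposited values are log2 intensities for 41345 probe sets, made by the authors with R 3.1.0, oligo and RMA, per the submitters' processing notes. Because RMA equalises the distributions of the arrays, a shift common to all genes cannot be seen, and low signals are compressed. Array medians were 3.59 to 3.76, 0 columns were identical and the precision is limited by the number of arrays. No batch or date was given.

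Gene names came from the platform annotation, in which 23521 have 1 symbol, 1814 several and 16010 none listed. Of these, 23328 were matched by gene ID to RefSeq (GRCm38.p6). The probe set with the highest mean was used for the 1082 genes with several.

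Groups came from the sample titles. With limma 3.58.1 in R 4.3.3, 8 group means were fitted to all 24 arrays with eBayes and a mean-variance trend (16 residual and 8.81 prior degrees of freedom), two-sided, adjusted by Benjamini-Hochberg over all 22180 genes. The fit was tested on simulated data. The interactions between successive times were added after values had been seen.

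All members are named. From each pathway list up to 4 genes past the threshold with the largest absolute change are named, and for each member the 3 genes with the most similar profile and the 2 nearest measured protein-coding genes on each side. The members and lists were chosen with earlier results of these data known.

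As alternatives, probe sets of a gene were averaged, genes under the 40th percentile of the mean level (3.24) were left out, and the fit was made with quantile normalization again, no trend, robust eBayes, only the groups compared, the array number as a block, genotype and number as a block, arrays 1 and 2 alone, the KO group at 0 h reduced to array 2, and leaving out each array in turn.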

Additional observations from a re-analysis of the deposited data

Results flagged for a closer look

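The interactions below compare the KO with the WT response over the same interval, and each was past the threshold in limma's test of the difference itself. No outlying array was sought, because groups of 3 are too small.

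For Rgs1 the KO response exceeded the WT response from 0 to 4 h (0.73, adjusted p = 0.0277) and was smaller from 0 to 24 h (-0.75, adjusted p = 0.00635), from 0 to 72 h (-0.88, adjusted p = 0.00104) and from 4 to 24 h (-1.48, adjusted p = 4.72e-06). For Rgs2 the KO change was the lower from 0 to 24 h (-1.27, adjusted p = 0.000661) and from 4 to 24 h (-1.77, adjusted p = 1.73e-05) and the higher from 24 to 72 h (0.77, adjusted p = 0.0229). For Rgs10 the KO fall was smaller from 0 to 24 h (0.34, adjusted p = 0.03) and from 0 to 72 h (0.42, adjusted p = 0.00749). For Rgs14 the KO change was the higher from 0 to 24 h (0.78, adjusted p = 0.0297) and the lower from 24 to 72 h (-1.02, adjusted p = 0.00274). For Rgs16 the KO rise was smaller from 0 to 24 h (-0.80, adjusted p = 0.0434).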

How the results depend on the processing

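Of 160 member results 80 were past the threshold, and 60 of them under every alternative. Among 5284 alternative values 141 calls were lost, 20 were gained and 0 reversed direction.

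The number of members called between KO and WT went from 3 to 1 at 4 h with only the groups compared and with arrays 1 and 2 alone, and from 5 to 3 at 24 h with the same settings. For the average of the 4 times it went from 3 to 1 without the trend, for arrays 1 and 2 alone and with the KO group at 0 h reduced to array 2. The interaction at 4 h had 1 call, 2 without genes below the 40th percentile, and 0 without the trend, with only the groups compared and with arrays 1 and 2 alone. That at 24 h had 5, and 3 without the trend, 2 with arrays 1 and 2 alone and 1 with the KO group at 0 h reduced to array 2. That at 72 h had 2, and 1 with the KO group at 0 h reduced to array 2. The step from 4 to 24 h had 2, and 4 after quantile normalization again. The step from 24 to 72 h had 2, and 1 with the mean of probe sets or with arrays 1 and 2 alone. Leaving out 1 array gave 0 to 1 calls between KO and WT at 0 h, 1 to 3 at 4 h, 3 to 5 at 24 h and 1 to 3 for their average, 2 to 4 for WT from 24 to 72 h, and 0 to 2 and 2 to 5 for the interactions at 4 and 24 h and 1 to 2 for the step from 24 to 72 h. The causes were not tested. With 1 KO array left at 0 h that array is assumed to vary like the other groups, and precision falls by construction.

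Same-numbered arrays of KO and WT at one time correlated in their deviations from the group means with a median of 0.101 (6 of 12 pairs over 0.1). With different numbers the median was -0.054 (0 of 24 pairs over 0.1). The labels name no shared animal, so the number was used as a block in the alternatives only. The main fit leaves what same-numbered arrays share in its spread. For the same genotype and number at different times the median was 0.127 (20 of 36 pairs over 0.1, against 0 of 72 with different numbers), and arrays numbered 3 are those with Y-linked transcripts. With the array number as a block 0, 2, 4 and 2 members were called between KO and WT at the 4 times, as Rgs3 at 4 h (adjusted p = 0.0552) and Rgs19 at 24 h (adjusted p = 0.0531) were lost. With genotype and number as a block the Rgs16 interaction at 24 h was lost (adjusted p = 0.0539), and the Rgs2 step from 4 to 24 h in WT (adjusted p = 0.0154) and the Rgs2 interaction at 72 h (adjusted p = 0.0254) were gained. The block changed no other member call. Rgs18 gave no value without genes below the 40th percentile.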
